A study of Mus musculus with 10 samples.

Results

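The mRNA of 8 genes that move or store iron was followed in sorted mouse intestinal stem cells. They are Slc11a2, Cybrd1, Heph, Slc40a1, Tfrc, Fth1, Ftl1 and Hmox1, chosen by name. All 8 have a row among the 30295 gene rows of the series, and all 8 passed the filter on low counts that left 15839 genes.

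Dietary iron is reduced at the brush border by the reductase encoded by Cybrd1 and enters the cell through the proton-coupled metal transporter encoded by Slc11a2 (DMT1). It leaves through the basolateral exporter ferroportin, the product of Slc40a1, aided by the ferroxidase hephaestin (Heph). Most other cells, dividing crypt cells among them, take up transferrin-bound iron through the transferrin receptor encoded by Tfrc. Spare iron is stored in ferritin, a shell of heavy (Fth1) and light (Ftl1) chains, and heme oxygenase 1 (Hmox1) frees iron from heme. When iron is scarce, the iron regulatory proteins, encoded by Aco1 and Ireb2, bind hairpins in some of these mRNAs. At the 5′ end they block translation, which RNA counts do not measure, and in the 3′ untranslated region of Tfrc they stabilise the mRNA.

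These hairpins are shown because members carry them at different ends of the mRNA. The loop CAGTGN, flanked by 5 bases on each side that pair with each other (G with T allowed) and with an unpaired C before the first of them, was searched on the sense strand of the GENCODE M21 coding transcripts. It was found in the 5′ untranslated region of 31 of 21877 coding genes (0.142%), among them 3 members, and in the 3′ untranslated region of 129 genes (0.59%), among them Tfrc. Each site is given as 30 bases, 5′ to 3′, with the 6 bases of the loop in capitals and its GRCm38 position.
Fth1, exon, 5′ untranslated region, chr19:9982731-9982760, plus strand: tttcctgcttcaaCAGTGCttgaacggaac
Ftl1, exon, 5′ untranslated region, chr7:45459779-45459808, minus strand: tgtcttgcttcaaCAGTGTttgaacggaac
Slc40a1, exon, 5′ untranslated region, chr1:45925465-45925494, minus strand: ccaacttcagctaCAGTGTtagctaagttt
Tfrc site 1, exon, 3′ untranslated region, chr16:32631218-32631247, plus strand: taattatcggaagCAGTGCcttccataatt
Tfrc site 2, exon, 3′ untranslated region, chr16:32631597-32631626, plus strand: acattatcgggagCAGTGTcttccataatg
Tfrc site 3, exon, 3′ untranslated region, chr16:32631662-32631691, plus strand: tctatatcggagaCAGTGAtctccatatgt
Tfrc site 4, exon, 3′ untranslated region, chr16:32631709-32631738, plus strand: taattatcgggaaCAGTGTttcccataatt
The windows lie in 4 of 5 coding transcripts of Fth1, 1 of 2 of Ftl1, 1 of 4 of Slc40a1 and 1 of 3 of Tfrc. Values per gene do not tell these transcripts apart. The windows of the ferritin chains differ at 3 of 30 bases, and each differs from that of Slc40a1 at 17. The letters were not found with full pairing in the coding transcripts of Slc11a2, Cybrd1, Heph or Hmox1. A hairpin with a mismatch or a bulge beside the loop would be missed, so the search cannot show that these 4 mRNAs lack one. A match describes letters and not binding.

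Cells came from C57Bl/6 mice of the lines Lgr5-EGFP-IRES-CreER, whose EGFP marks the dividing stem cells of the crypt base, and Hopx-CreER::LSL-tdTomato, in which recombination in Hopx-expressing cells switches on tdTomato in them and their progeny. Mice ate freely (ad libitum, AL) or had their calories restricted (CR). Each Lgr5 group, AL or CR, had n = 3 and each Hopx group n = 2, with 1 library for each of 10 animals. Isolations 1, 2 and 3 each held a pair of Lgr5 mice and isolations 4 and 5 a pair of Hopx mice, 1 AL and 1 CR animal in each, so the reporter line and the isolation cannot be told apart. The sources used here do not state age, sex, how long calories were restricted or when recombination was induced.

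Depth was 20.3 to 87.2 times 1e6 estimated counts per library. Hopx mRNA was 108 ± 4.03 CPM in Hopx AL and 127 ± 9.19 in Lgr5 AL (SD). It was lower in Hopx CR than in Lgr5 CR too (log2 fold change -0.60), so the name of the Hopx population rests on the sort. Summed enterocyte markers (16 genes) ran from 6364 to 31450 CPM and summed Paneth cell markers (9 genes) from 16020 to 208900 CPM, so mRNA of differentiated cells was present in every library. In bulk RNA, fewer cells of a type and less RNA per cell cannot be told apart. CPM are counts per 1e6 counts of a library after TMM scaling, and TPM are the authors' values per transcript length.

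Ferritin was by far the most abundant of the members. On the TPM scale, which allows levels of different genes to be compared, Fth1 stood at 2383 to 4096 (median 2817) and Ftl1 at 1649 to 2592 (median 1995) over the 10 libraries. Fth1 was above Ftl1 in 10 of 10 libraries, and the ratio of Ftl1 to Fth1 was 0.463 to 0.894. The middle of the order was not fixed. Tfrc (median 37.4 TPM) was above Heph (34.7) in 5 of 10 libraries, Heph was above Slc11a2 (30.7) in 7 and Slc11a2 above Slc40a1 (16.2) in 7. The reductase gene Cybrd1 followed at 1.08 to 5.13 TPM, and Hmox1 was lowest at 0.641 to 2.00 TPM. Cybrd1 was above Hmox1 in 10 of 10 libraries.

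**Figure D1:**
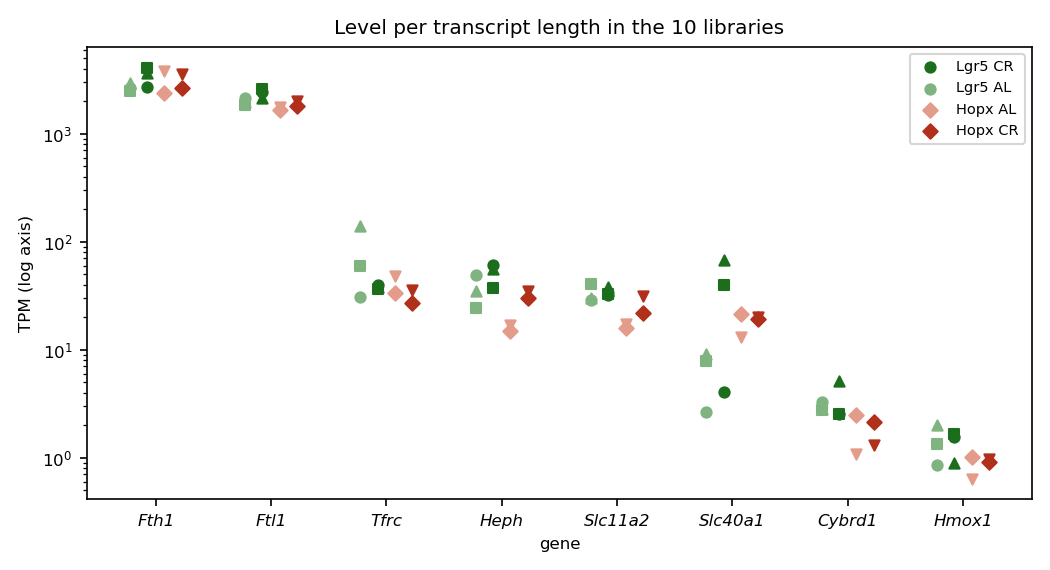
TPM (log axis) of the 8 genes, 1 point per library, coloured by group, with 1 marker shape per isolation. Fth1 and Ftl1 lie between 1649 and 4096 TPM, and Slc40a1 spans 2.67 to 67.2 TPM.

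None of the 8 genes passed the test for calorie restriction in Lgr5 cells. With edgeR's quasi-likelihood test at an adjusted p of 0.05 over all genes, 0 of 8 passed, against 0.0189% of all genes. At an unadjusted p under 0.05 there were 3 of the 8 (Slc40a1, Heph and Fth1), against 9.78% of all genes. DESeq2, which passed 365 of all genes, and limma on TPM passed 0 of 8 too. The log2 fold change was positive for 7 of 8 (median 0.40, all genes 0.02) and negative for Tfrc.

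The widest difference was that of the iron exporter gene Slc40a1. Its CPM were 6.57, 18.8 and 14.96 in Lgr5 AL replicates 1, 2 and 3, and 9.91, 101 and 158 in Lgr5 CR replicates 1, 2 and 3. CR replicates 2 and 3 lay far above every AL library, while CR replicate 1 lay within the AL range, so the groups overlapped. The means were 13.4 ± 6.25 and 89.7 ± 74.7 CPM (SD, n = 3 each), with a log2 fold change of 2.74 (SE 0.793, adjusted p = 0.278). Within isolations 1, 2 and 3 the CR animal was 1.51, 5.38 and 10.6 times its AL partner. The log2 fold change was 2.04 (adjusted p = 0.664) without Lgr5 CR replicate 3, and 2.91 (adjusted p = 0.0454) without both animals of isolation 1, a setting chosen after seeing the data in which 0.102% of genes passed.

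Enterocytes are the cells best known to use Slc40a1 for export, and within each Lgr5 isolation both their summed markers and Slc40a1 were higher in the CR animal. Across isolations the order differed. Both libraries of isolation 1 held the most enterocyte marker mRNA (29830 CPM in AL and 31450 in CR), and they held the least Slc40a1. In isolations 2 and 3 the AL libraries held 9841 and 6364 CPM of those markers and the CR libraries 22630 and 24660. Macrophages recycle iron through ferroportin as well. Their 13 markers summed to 61.0 to 103 CPM in Lgr5 AL and 93.5 to 109.9 in Lgr5 CR, and 8 of the 10 tested had a positive log2 fold change (median 0.54, 0 passed over all genes). The largest was that of Mrc1, at 0.476 ± 0.268 CPM in Lgr5 AL and 1.78 ± 0.505 in Lgr5 CR, without overlap (1.92, adjusted p = 0.674). The next was that of C1qb, at 0.126 ± 0.112 and 0.387 ± 0.265 CPM (1.71). Csf1r (0.89), Cd68 (0.74), Mertk (0.70) and C1qc (0.38) were positive too. C1qa (0.08), Lyz2 (0.13), Itgam (-0.03) and Cd14 (-0.09) lay near 0. Emr1 (F4/80) was at most 0.214 CPM and Cd163 was 0 in all 6 Lgr5 libraries. The part of these cells in the difference was not tested.

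The ferroxidase gene Heph stood at 207, 99.4 and 96.3 CPM in Lgr5 AL replicates 1 to 3 and at 255, 161 and 225 CPM in Lgr5 CR replicates 1 to 3. AL replicate 1 lay above CR replicate 2, so the groups overlapped, although the CR animal was higher in each isolation. The log2 fold change was 0.67 (SE 0.298, adjusted p = 0.508). The importer gene Slc11a2 stood at 63.8, 87.1 and 44.3 CPM in AL and 71.1, 74.7 and 80.9 in CR. Its AL values lay on both sides of the CR values, and the log2 fold change was 0.21 (SE 0.238, adjusted p = 0.815). Cybrd1 stood at 9.11 to 15.95 CPM in AL and 12.2 to 23.7 in CR (log2 fold change 0.35, SE 0.443, adjusted p = 0.841), where CR replicate 3 alone was above the AL range.

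Tfrc was the member with less mRNA in Lgr5 CR on average. The AL libraries held 129, 239 and 389.5 CPM, and the CR libraries 165, 159 and 153 CPM. The CR libraries lay close together within the wide range of the AL libraries. The log2 fold change was -0.67 (SE 0.32, adjusted p = 0.534), and in isolation 1 the CR animal was higher. Proliferation markers (10 genes), which include S phase genes, summed to 1112, 1742 and 1436 CPM in Lgr5 AL and to 920, 1272 and 1160 CPM in Lgr5 CR. They were lower in the CR animal of isolations 1, 2 and 3, and their part in the Tfrc values was not tested.

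Both ferritin chains had higher means in Lgr5 CR. Fth1 stood at 1567, 1412 and 1137 CPM in AL and 1582, 2490 and 2042 CPM in CR. It was the 1 member of 8 whose groups did not overlap, against 14.9% of all genes, and the nearest values, both from isolation 1, lay close together. The log2 fold change was 0.57 (SE 0.233, adjusted p = 0.471). Ftl1 stood at 1452, 1214 and 893 CPM in AL and 1648, 1837 and 1384 CPM in CR (log2 fold change 0.45, SE 0.222, adjusted p = 0.545). The CR animal had more Ftl1 mRNA in each of the isolations 1 to 3. Hmox1 was near 1 CPM in both groups, 0.928 to 1.46 in AL and 0.957 to 1.92 in CR (log2 fold change 0.26, SE 0.494, adjusted p = 0.903), on 26.4 to 73.7 estimated counts per Lgr5 library.

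**Figure D2:**
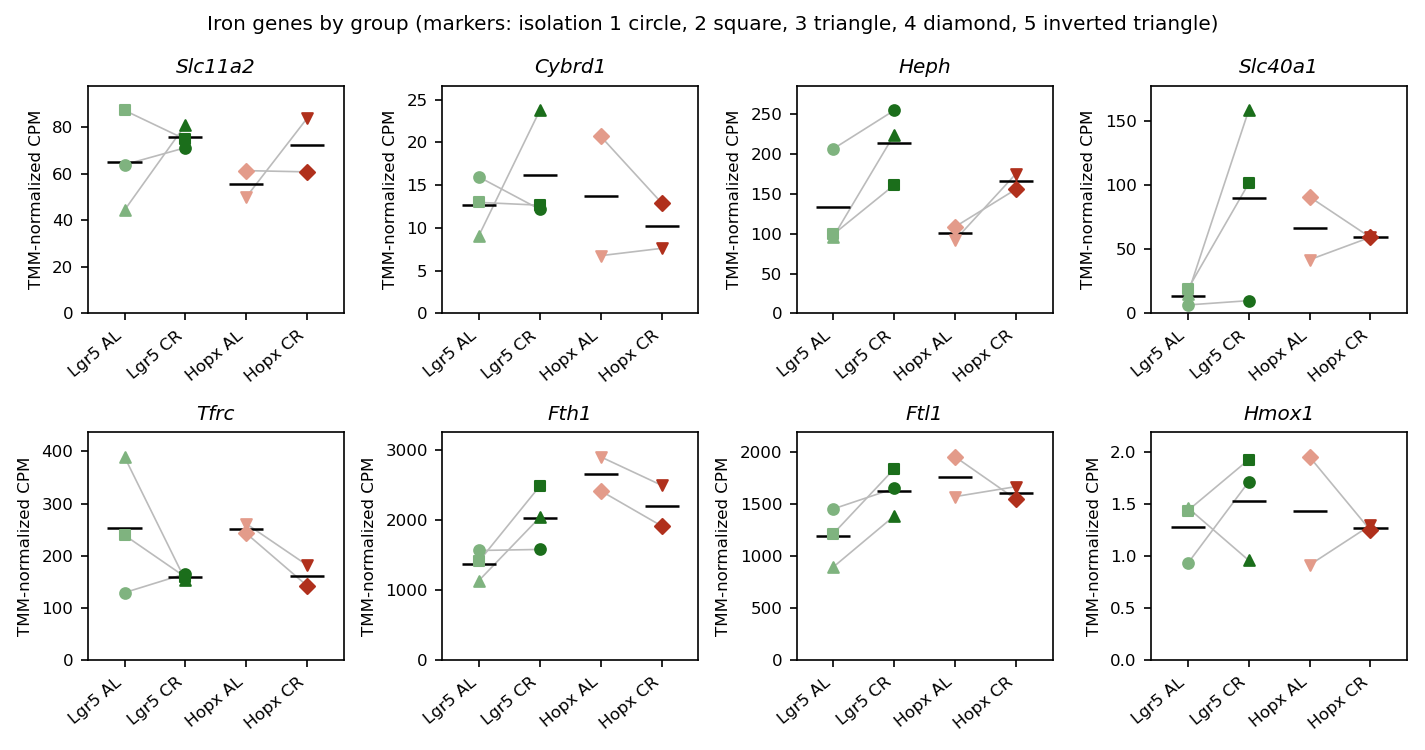
TMM-normalized CPM of each gene by group, 1 point per library, with the group mean as a black bar and a grey line joining the AL and CR animals of an isolation. Slc40a1 is at 101 and 158 CPM in Lgr5 CR replicates 2 and 3 and at most 18.8 in Lgr5 AL, and Tfrc lies between 153 and 165 CPM in Lgr5 CR.

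In Hopx cells calorie restriction also gave no call among the 8 genes. By edgeR 0 of 8 passed (0.0126% of all genes) and 0 had an unadjusted p under 0.05 (8.52% of all genes). DESeq2, which passed 140 of all genes, and limma on TPM passed 0 of 8. The log2 fold change was negative for 6 of 8 (median -0.17, all genes -0.02).

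Heph and Tfrc were the 2 members whose Hopx groups did not overlap, where 42.7% of all genes did not. Heph stood at 109 and 92.4 CPM in Hopx AL and 156 and 176 in Hopx CR, a difference of 0.72 log2 units (SE 0.365, adjusted p = 0.61). Tfrc stood at 243 and 261 CPM in Hopx AL and 142 and 182 in Hopx CR, a difference of -0.64 log2 units (SE 0.392, adjusted p = 0.675). Summed proliferation markers were higher in the CR animal of isolations 4 and 5 (1030 to 1158 and 1193 to 1368 CPM), where Tfrc was lower. Of the 10 genes, 6 had a positive log2 fold change. The 4 negative ones were Pcna (-0.22), Mcm5 (-0.34), Mcm6 (-0.09) and Rrm2 (-0.05). Their part in the Tfrc values was not tested.

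The exporter gene Slc40a1 stood at 90.7 and 41.8 CPM in Hopx AL and at 59.1 and 59.3 in Hopx CR. The CR values lay between the AL values, and the log2 fold change was -0.16 (SE 0.905, adjusted p = 0.97). Slc11a2 stood at 61.2 and 49.96 CPM in Hopx AL and 60.7 and 83.8 in Hopx CR, a difference of 0.38 log2 units (SE 0.291, adjusted p = 0.74). It was near equal within isolation 4 and higher in the CR animal of isolation 5.

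Fth1 stood at 2421 and 2908 CPM in Hopx AL and 1918 and 2501 in Hopx CR, lower in the CR animal of both isolations. Its log2 fold change was -0.27 (SE 0.284, adjusted p = 0.812), but 0.01 on the log2(TPM + 1) scale, where the CR animal of isolation 4 was higher (2624 against 2383 TPM). Ftl1 stood at 1952 and 1570 CPM in Hopx AL and 1544 and 1666 in Hopx CR (-0.13, SE 0.272, adjusted p = 0.91), and at 0.16 on the log2(TPM + 1) scale. The median of all genes in this comparison was 0.15 on that scale. Cybrd1 (-0.42, SE 0.542, adjusted p = 0.852) and Hmox1 (-0.18, SE 0.598, adjusted p = 0.947) were lower in the CR animal of isolation 4 and higher in that of isolation 5, and both turned to values above 0 on the TPM scale (0.00243 and 0.0888), as did Slc40a1 (0.22).

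Over the 5 isolations, Heph was the member with more mRNA in the CR animal of each. The CR animal held more Heph mRNA by 0.30, 0.70 and 1.22 log2 units in isolations 1 to 3 and by 0.52 and 0.93 in isolations 4 and 5. Of all genes, 8.71% were higher in 5 of 5. The share with the same sign in 5 of 5, in either direction, is not given here and cannot be smaller. Averaged over both populations the log2 fold change was 0.70 (SE 0.235, adjusted p = 0.243). Tfrc was lower in the CR animal of 4 of 5 isolations (averaged -0.65, SE 0.253, adjusted p = 0.286), and no share of all genes is given for 4 of 5. For these averages 0 of 8 members passed (0.00631% of all genes) and Heph and Tfrc had an unadjusted p under 0.05 (14.5% of all genes). DESeq2, which passed 641 of all genes, and limma on TPM passed 0 of 8. Without Lgr5 AL replicate 1, Heph (0.92, adjusted p = 0.0262) and Tfrc (-0.81, adjusted p = 0.0377) passed, where 2.22% of all genes did. Without both animals of isolation 1, Heph passed (0.84, adjusted p = 0.0499), where 0.725% of all genes did.

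The other averages did not pass either. They were 1.29 for Slc40a1 (SE 0.596, adjusted p = 0.36), 0.30 for Slc11a2 (SE 0.188, adjusted p = 0.49), 0.15 for Fth1 (adjusted p = 0.741) and 0.16 for Ftl1 (adjusted p = 0.706). For Cybrd1 and Hmox1 the adjusted p was 0.975 and 0.974, and the CR animal was higher in 2 and 3 of 5 isolations.

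**Figure D3:**
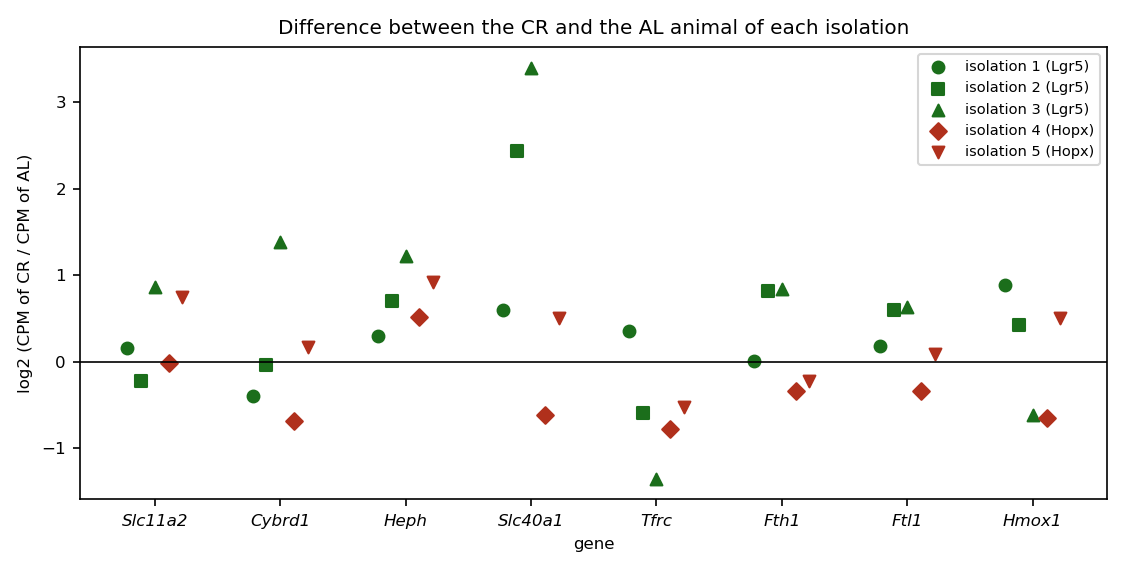
Log2 ratio of CPM in the CR animal to the AL animal of each isolation, with Lgr5 isolations in green and Hopx isolations in red. Heph lies above 0 in 5 of 5 isolations, Tfrc below 0 in 4 of 5, and Slc40a1 runs from -0.62 in isolation 4 to 3.4 in isolation 3.

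Heph mRNA stood beside the enterocyte markers in every library. The 4 libraries with the least of these markers (6364 to 13340 CPM) held 92.4 to 109 CPM of Heph, and the other 6 (21430 to 31450 CPM) held 156 to 255 CPM. The marker sum was higher in the CR animal of 5 of 5 isolations, all 16 markers had a positive averaged log2 fold change (median 0.96) and 0 passed over all genes. Markers of the proximal intestine, where most iron is absorbed, summed to 382 to 1300 CPM (6 genes, of which Lct is also among the enterocyte markers), and those of the distal intestine to 209 to 1022 CPM. Both sums were higher in the CR animal of isolations 2 to 5 and lower in that of isolation 1. Single proximal genes differed from their sum. Of 5 tested, 5 had a positive log2 fold change in Lgr5 cells. In Hopx cells 3 were positive and 2 negative, Pdx1 (-0.54, adjusted p = 0.804) and Onecut2 (-0.44, adjusted p = 0.836). All 6 distal genes tested were positive in both populations. The part of villus cells or of gut region in the Heph values was not tested.

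**Figure D4:**
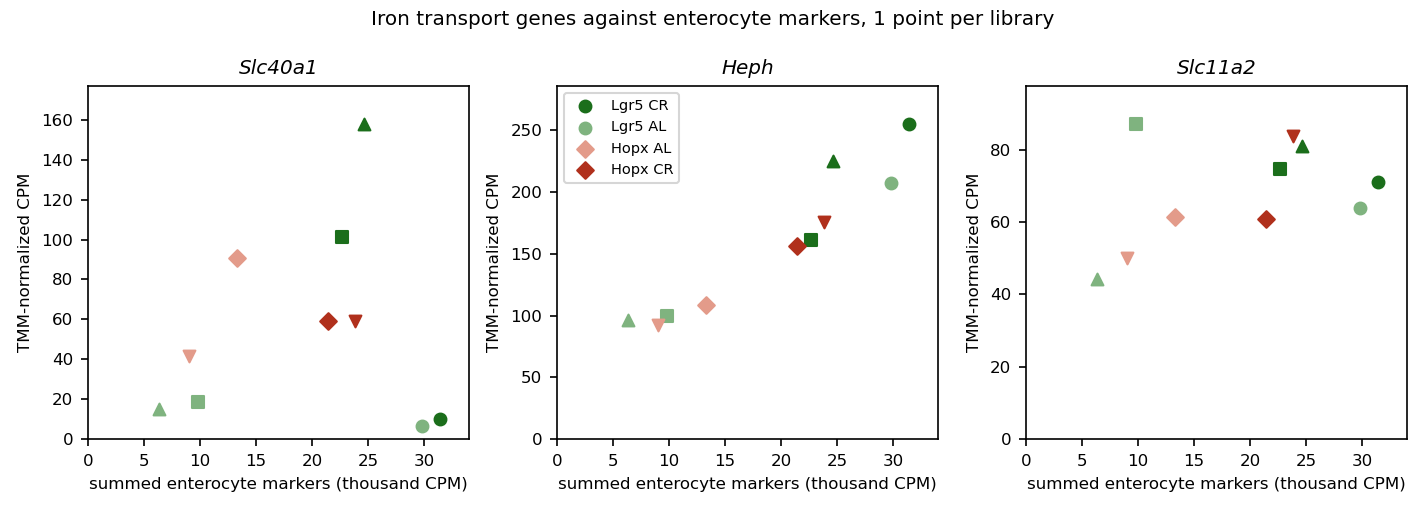
CPM of Slc40a1, Heph and Slc11a2 against the summed CPM of 16 enterocyte markers, 1 point per library, with marker shapes for isolations as in the plot by group. Heph is at 92.4 to 109 CPM in the 4 libraries on the left and 156 to 255 in the 6 on the right, while both libraries of isolation 1 lie at the right edge with 6.57 and 9.91 CPM of Slc40a1.

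The diet effects of the populations were then compared directly, since a difference within Lgr5 cells and its absence within Hopx cells does not show that they differ. The interaction passed for 0 of 8 members (0.00631% of all genes), with DESeq2 (which passed 35 of all genes) and limma on TPM also at 0. At an unadjusted p under 0.05 there were 2 members, Slc40a1 and Fth1, against 4.72% of all genes. The diet effect in Hopx cells minus that in Lgr5 cells was -2.90 for Slc40a1 (SE 1.2, adjusted p = 1), -0.84 for Fth1 (SE 0.367, adjusted p = 1) and -0.59 for Ftl1 (SE 0.351, adjusted p = 1), in log2 units.

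Between the populations with free access to food, 3 members had higher CPM in every Hopx library than in any Lgr5 library, a share near that of all genes. Slc40a1 stood at 90.7 and 41.8 CPM in Hopx AL and at 6.57 to 18.8 in Lgr5 AL (log2 fold change 2.30, SE 0.83, adjusted p = 0.194). Fth1 stood at 2421 and 2908 CPM against 1137 to 1567 (0.96, SE 0.256, adjusted p = 0.119), and Ftl1 at 1952 and 1570 against 893 to 1452 (0.57, SE 0.246, adjusted p = 0.265). These 3 of 8 compare with 34.5% of all genes without overlap, and 0 of 8 passed by edgeR (0.0189% of all genes), with the same 3 at an unadjusted p under 0.05 (17.7% of all genes). These AL libraries are also the controls of the diet comparisons above. Paneth cell markers summed to 83470 and 208900 CPM in Hopx AL and to 16020 to 64860 in Lgr5 AL, and macrophage markers to 153 and 180 against 61.0 to 103 CPM, and their part was not tested. Without Hopx AL replicate 1 the log2 fold change of Slc40a1 was 1.60 (adjusted p = 0.557).

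Other methods made other calls in this comparison. DESeq2 passed Fth1 (0.92, adjusted p = 0.013), where 7.3% of all genes passed. On the log2(TPM + 1) scale all genes had a median of -0.49, and limma passed Heph (-1.07, adjusted p = 0.0322) and Slc11a2 (-0.93, adjusted p = 0.0218) as lower in Hopx AL, beside 21.2% of all genes (22.8% on log2(TPM + 0.1), where the same 2 members passed). There Heph stood at 15.01 and 17.05 TPM in Hopx AL and 24.5 to 49.4 in Lgr5 AL, and Slc11a2 at 15.9 and 17.4 against 28.8 to 40.5 TPM. In the edgeR fit they stood at -0.42 (SE 0.335, adjusted p = 0.559) and -0.23 (SE 0.267, adjusted p = 0.708). On the TPM scale Fth1 was at 0.17 (adjusted p = 0.76) and Ftl1 turned to -0.20 (adjusted p = 0.61), with Fth1 at 2383 and 3834 TPM in Hopx AL against 2483 to 2923 in Lgr5 AL, overlapping, and Ftl1 at 1649 and 1776 against 1832 to 2125 TPM, lower in Hopx AL. For Tfrc, Cybrd1 and Hmox1 the edgeR adjusted p was 0.905 to 0.997.

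Under calorie restriction no member separated the populations. The groups overlapped for all 8 members, where 23.1% of all genes did not overlap. By edgeR 0 of 8 passed (0.0189% of all genes), with 0 at an unadjusted p under 0.05 (6.3% of all genes). DESeq2, which passed 160 of all genes, and limma passed 0 of 8. Slc40a1 stood at 59.1 and 59.3 CPM in Hopx CR, between the 9.91 and the 101 and 158 CPM of Lgr5 CR (log2 fold change -0.60, SE 0.84, adjusted p = 0.969). Heph stood at -0.37 (SE 0.334, adjusted p = 0.942).

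The other genes of iron and heme handling were 95 genes in 7 lists, of which 87 were tested, and 0 passed in any of the 6 comparisons by edgeR. At an unadjusted p under 0.05 there were 13 higher and 3 lower in Lgr5 CR, against 9.78% of all genes, and 6 higher and 4 lower in Hopx CR, against 8.52%. Between Hopx AL and Lgr5 AL there were 16 higher and 4 lower, against 17.7% of all genes. The smallest adjusted p in the Lgr5 diet comparison was that of a gene described as a heme carrier. Flvcr2 (row Mfsd7c) stood at 1.95 ± 1.25 CPM in Lgr5 AL and 16.8 ± 6.79 in Lgr5 CR (log2 fold change 3.12, adjusted p = 0.162), and at 2.42 ± 1.48 and 12.9 ± 5.50 in Hopx AL and CR (2.41, adjusted p = 0.478). Averaged over both populations it stood at 2.76 (adjusted p = 0.0597). Flvcr1 (row Mfsd7b), described as a plasma membrane heme exporter, stood at 19.1 ± 4.72 and 58.5 ± 29.5 CPM in Lgr5 AL and CR (1.61, adjusted p = 0.217). Slc46a1, a folate carrier also described as a heme carrier, stood at 75.5 ± 44.1 and 146 ± 56.6 CPM (0.95, adjusted p = 0.493).

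The list of iron and oxygen sensing and systemic iron control had a positive log2 fold change under restriction for 12 of 13 genes tested in each population (median 0.29 in Lgr5 and 0.19 in Hopx cells), where 8208 and 7692 of 15839 genes were positive. Its summed CPM was higher in the CR animal of 5 of 5 isolations, as was that of the enterocyte markers, whose part was not tested. At an unadjusted p under 0.05 there were 3 of the 13 in Lgr5 cells, against 9.78% of all genes, and 1 in Hopx cells, against 8.52%. All of these were higher, and 0 passed over all genes (0.0189% and 0.0126% of all genes did). In Lgr5 cells they were Tmprss6, Ireb2 and Hif1a (0.70, adjusted p = 0.346). The gene with a negative value was Egln1 in Lgr5 cells (-0.64, adjusted p = 0.569) and Erfe (row Fam132b) in Hopx cells (-0.35, adjusted p = 0.751). Besides sensors the list holds genes of systemic control such as Tmprss6 and Hfe. Aco1, iron regulatory protein 1, stood at 251 ± 30.2 and 284 ± 36.8 CPM in Lgr5 AL and CR and at 182 ± 19.2 and 290 ± 6.03 in Hopx AL and CR (0.67 in Hopx cells, adjusted p = 0.478). Ireb2, iron regulatory protein 2, stood at 32.6 ± 8.58 and 52.9 ± 6.35 CPM in Lgr5 cells (0.70, adjusted p = 0.424). Fbxl5, which directs iron regulatory protein 2 to degradation, differed less (0.29, adjusted p = 0.618). Epas1, the hypoxia-inducible factor that drives Slc11a2, Cybrd1 and Slc40a1 in enterocytes, stood at 12.3 ± 3.37 and 16.5 ± 5.39 CPM in Lgr5 cells (0.43, adjusted p = 0.671) and at 0.12 in Hopx cells (adjusted p = 0.939).

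Ferritin turnover and heme synthesis gave no call. Ncoa4, the receptor that takes ferritin to lysosomes, stood at 139 ± 7.40 and 209 ± 78.2 CPM in Lgr5 AL and CR (0.59, adjusted p = 0.534) and at -0.24 in Hopx cells (adjusted p = 0.868). Alas1, the first enzyme of heme synthesis, stood at 0.08 in Lgr5 cells (adjusted p = 0.953) and 0.48 in Hopx cells (adjusted p = 0.7). Uros, a later enzyme of the pathway, stood at 38.3 ± 5.82 and 21.1 ± 5.24 CPM in Lgr5 AL and CR (-0.86, adjusted p = 0.235). Red cell markers, 9 genes among them the hemoglobins, summed to 1.58 to 36.8 CPM and were lower in the CR animal of 5 of 5 isolations.

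The genes most like each member were those with the smallest mean absolute difference in centred log2 CPM over the 10 libraries, among 9960 candidates. They were Ezr (ezrin, of the brush border) and Abhd2 for Heph at 0.109 and 0.112 log2 units, where Heph itself deviated from its mean by 0.463. For Tfrc they were Zfp367 and Rmnd1 (0.125 and 0.168), for Ftl1 Elovl1 and Fdx1 (0.074 and 0.0883) and for Fth1 Tnfaip8l3 and Cystm1 (0.164 and 0.168). For Slc11a2 they were Cox15 and Mul1 (0.113 and 0.115), for Cybrd1 Slc1a4 and Slc41a1 (0.218 and 0.239) and for Hmox1 Psph and Sirt5 (0.172 and 0.181). For Slc40a1 the nearest were Ugt1a9 and Ret, at 0.601 and 0.615 log2 units (Pearson r 0.894 and 0.852). These were the largest distances, and Slc40a1 also deviated the most from its own mean, by 1.31.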

How the data were processed

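RNA from 10 libraries of sorted cells was measured after SMART-Seq v4 cDNA synthesis and Nextera XT library preparation on a NextSeq 500, per the labels' protocols. Reads carry neither molecular identifiers nor strand. The authors deposited estimated counts and TPM per gene symbol. Per the submitters' processing notes, kallisto and edgeR were used with the build GRCh38, a human build, while the symbols are mouse symbols. Annotation and filters are not given in those sources.

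Estimated counts were rounded, filtered with filterByExpr (minimum count 10, all 8 members kept), scaled by TMM and fitted with 1 mean per group over all 10 libraries with the quasi-likelihood test of edgeR (version 4.0.16 under R 4.3.3). P-values are two-sided and adjusted by Benjamini-Hochberg over 15839 genes per comparison (threshold 0.05). The code was tested on simulated data. The SE is the log2 fold change divided by the square root of the F statistic. Alternatives were DESeq2 1.42.0, limma 3.58.1 on log2(TPM + 1) and log2(TPM + 0.1), other scalings and filters, the compared groups alone, an isolation block, and each library or isolation left out. Labels pair AL and CR animals by isolation, and the deviations of paired libraries from their group means correlated at 0.0195 to 0.165.

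The members and lists were chosen with earlier results of these data known. Named genes are the 8 members, Epas1, Aco1, Ireb2, Fbxl5, Ncoa4 and Alas1, and from the other lists up to 3 genes with the smallest p and a mean of at least 1 CPM. Some marker genes, such as Hopx, C1qb, Emr1 and Cd163, were named outside this rule. Likeness used genes with at least 5 CPM. In all, 7 list genes were found under an older symbol. Hairpin positions come from the GENCODE M21 transcripts and annotation (GRCm38). On the opposite strand, Gm5475 overlaps exons of Slc11a2 and Hsf3 those of Heph, with rows of at most 0.385 TPM, and Gm10252 overlaps those of Ftl1, so their reads cannot be told apart. Ferritin pseudogene rows (Fth-ps2, Ftl2) held at most 1.78 TPM, and reads shared between near-identical copies make ferritin values uncertain.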

Additional observations from a re-analysis of the deposited data

Results flagged for a closer look

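In CPM, the diet effect on Fth1, the ferritin heavy chain, was of opposite sign in the populations. The CR animal was higher in isolations 1, 2 and 3 (Lgr5 cells, by 0.01, 0.82 and 0.84 log2 units) and lower in isolations 4 and 5 (Hopx cells, by -0.34 and -0.22). The share of all genes with such opposite signs was not worked out, so the flag does not set Fth1 apart from other genes. The interaction was -0.84 (edgeR unadjusted p = 0.0452, adjusted p = 1) and did not pass. On the TPM scale the CR animal of isolation 4 was higher, by 0.14 log2 units. The Hopx log2 fold change on log2(TPM + 1) was 0.0108, of the same sign as in Lgr5 cells.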

How the results depend on the processing

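DESeq2 changes the size factors, the dispersion and the test together, limma on TPM changes the unit and the test, and each other alternative changes 1 choice. Leaving out both animals of an isolation was added after seeing the data. The number of members past the threshold stayed at 0 except in these cases. For calorie restriction in Lgr5 cells it was 1 without isolation 1 (Slc40a1). For the average over both populations it was 1 without isolation 1 (Heph, adjusted p = 0.0499) and 0 to 2 with single libraries left out. For Hopx AL against Lgr5 AL it was 1 with DESeq2 (Fth1), 2 with limma on log2(TPM + 1) and 2 on log2(TPM + 0.1) (Heph and Slc11a2). With the isolation as a replicate block, 0 members passed in the 4 diet comparisons, and Slc40a1 in Lgr5 cells stood at 2.19 (adjusted p = 0.236). No block could be fitted between populations.

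Of 48 log2 fold changes (8 members, 6 comparisons), 27 changed sign under at least 1 alternative, none of them past the threshold when they did, and the largest of these 27 reported values was 0.773 in size. In Lgr5 cells, leaving out isolation 3 gave Slc11a2 -0.0823 and Cybrd1 -0.253, leaving out isolation 1 gave Hmox1 -0.0341, log2(TPM + 1) gave Hmox1 -0.00092, and single libraries left out gave Cybrd1 -0.0318 to 0.551. In Hopx cells, log2(TPM + 1) and log2(TPM + 0.1) gave Slc40a1 0.217 and 0.23, Cybrd1 0.00243 and 0.0273, Fth1 0.0108 on both, Ftl1 0.161 on both, and Hmox1 0.0888 and 0.186. Leaving out isolation 4 gave Slc40a1 0.517, Cybrd1 0.183, Ftl1 0.0969 and Hmox1 0.515, and leaving out isolation 5 gave Slc11a2 -0.0126. Single libraries left out gave Slc40a1 -0.617 to 0.514, Cybrd1 -1.01 to 0.616, Ftl1 -0.283 to 0.042 and Hmox1 -0.621 to 0.486, and a lone Hopx library was assumed to vary like the other groups. For Hopx AL against Lgr5 AL, Ftl1 was -0.205 on both TPM scales, Slc11a2 0.0382 without isolation 2 and Heph 0.0132 without isolation 1, and single libraries left out gave Slc11a2 -0.458 to 0.0393 and Heph -0.636 to 0.0403. For Hopx CR against Lgr5 CR, Slc40a1 was 0.074 without isolation 3 and -1.14 to 0.0941 with single libraries left out. The cause of these shifts was not tested.

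The number of all genes past the threshold moved far more, from 3 to between 0 and 365 (Lgr5 diet), 2 to between 0 and 140 (Hopx diet), 1 to between 0 and 641 (average), 1 to between 0 and 35 (interaction), and 3 to between 0 and 3617 (AL) or 1 and 160 (CR) between populations. Hmox1 and Cybrd1 rest on the fewest counts among the members.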

Other observations

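The list of mitochondrial iron and iron-sulfur cluster genes was also compared between the populations with free access to food. Of 28 tested, 9 were higher and 2 lower in Hopx AL at an unadjusted p under 0.05, against 17.7% of all genes. By edgeR 0 passed over all genes, against 0.0189% of all genes. Iba57, an iron-sulfur assembly factor, had 23.0 ± 1.73 CPM in Hopx AL and 39.8 ± 1.81 in Lgr5 AL (log2 fold change -0.79, edgeR adjusted p = 0.0889), and Isca2, another assembly factor, 51.2 ± 6.33 and 31.1 ± 3.05 CPM (0.72, adjusted p = 0.103). In the other lists, Pcbp4, of the family of poly(C)-binding proteins whose members 1 and 2 carry iron to ferritin, had 8.81 ± 3.38 CPM in Hopx AL and 2.88 ± 0.518 in Lgr5 AL (log2 fold change 1.61, edgeR adjusted p = 0.0881). Blvrb, a biliverdin reductase, stood at 39.7 ± 17.4 and 19.0 ± 3.12 CPM (1.06, adjusted p = 0.116), and the metalloreductase gene Steap1 at 17.6 ± 1.52 and 9.56 ± 2.01 CPM (0.88, adjusted p = 0.134).

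The heme-binding gene Hebp1 had 7.71 ± 0.405 CPM in AL and 0.978 ± 0.173 CPM in CR animals among Hopx cells (-2.97, adjusted p = 0.406), and at 6.54 ± 3.15 and 6.43 ± 2.56 CPM in Lgr5 AL and CR. Tmprss6, which restrains the iron hormone hepcidin, stood at 0.109 ± 0.131 CPM in Lgr5 AL and 2.59 ± 1.15 in Lgr5 CR (4.41, adjusted p = 0.189), and 0.931 ± 0.395 and 1.04 ± 0.168 CPM under AL and CR in Hopx cells.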
